A study of Mus musculus with 10 samples.

Results

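Mitosis and spindle genes are the genes whose products build the spindle, hold chromosomes to it, watch over their attachment and divide the cell. A fixed list of 52 such genes, chosen by role, was taken from the 24538 genes of the count tables, and all 52 were found there by symbol. RNA sequencing had been done on 10 libraries of sorted mouse lung cells, 5 from lung metastases and 5 from normal lung. The mice of both groups were wild type C57BL6/J, with a stated age of 8 to 10 weeks. The metastases came from E0771-LG mammary tumour cells given by tail vein to females aged 6 to 8 weeks, and each metastasis library pools the dissected nodules, less than 1 mm across, of 2 to 4 mice. Normal lungs, which the labels do not describe as pooled or injected, were processed in parallel. In both groups live cells were sorted as CD31+/CD45-, a gate that takes endothelial cells and leaves out most leukocytes, after digestion in the presence of transcription inhibitors. The metastases are of 1 tumour cell line, and the labels do not say that each library came from separate animals, so the p-values measure the spread between these libraries.

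Mitotic genes are transcribed mostly in late S, G2 and M phase, so their RNA in a tissue sample follows the share of cells in division. In resting cells, repressor complexes that contain E2F and pocket proteins hold many of them down, and in dividing cells B-Myb and FoxM1 activate them. Lung capillary endothelium turns over slowly in the healthy adult, whereas tumour vessels, tumour cells and infiltrating cells can divide.

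Counts in genes totalled 21677429 to 54266459 per library in metastases and 41004704 to 79710581 in normal lung, and every one of the 52 genes had counts in every library. The 52 genes made up 0.657 to 1.11% of gene counts in metastases and 0.0441 to 0.0707% in normal lung. Metastasis replicate 3 stood apart in that 16% of 6997 well-counted genes had under 2% of the counts of the other 4 metastasis libraries there. Without it 45 of the 52 genes were called higher and 1 lower, the same numbers as with it. Of all 12353 genes tested without it, 1384 were called higher and 1114 lower, against 1420 and 972 of 11823 with it.

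Metastases had far more RNA of these genes than normal lung. Levels are given as CPM (counts-per-million, from counts in genes on libraries scaled by TMM), with libraries in the order of replicates 1 to 5. Summed over the 52 genes, the level was 9787, 5454, 8706, 8736 and 8148 CPM in metastases, against 667, 453, 519.9, 757 and 495 CPM in normal lung. The groups did not overlap, and the highest normal lung library was far under the lowest metastasis library, replicate 2. The means were 8166 ± 1628 CPM in metastases and 578 ± 128 CPM in normal lung (SD, n = 5 each), a ratio of 14.1-fold or 3.82 on the log2 scale. In these bulk samples fewer cells of a type and less RNA per cell cannot be told apart.

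Gene by gene, 45 of the 52 rose in metastases and 1, Pttg1, fell. The test was edgeR's quasi-likelihood test over the 11823 genes that passed a filter on low counts, with Benjamini-Hochberg adjustment and a threshold of 0.05. The background of higher calls was 12.0% of the tested genes, and that of lower calls was 8.22%. The levels of the 2 groups did not overlap for 43 of the 52 genes, 42 of them higher in metastases and Pttg1 lower. Over all tested genes, 8.50% had every metastasis library above every normal lung library and 6.17% had the reverse. The median log2 fold change (metastases minus normal lung) was 5.86 over the 52 genes and 0.06 over all tested genes. All 52 passed the filter, but Ttk, Nek2, Melk, Espl1, Cdca3, Birc5, Troap, Kif2c and Nuf2 did so only through their metastasis libraries, while 43 would have passed on normal lung alone. For the genes so named, a change was a condition of being tested, which limits their calls here and below. All of them but Espl1 were called higher. At an unadjusted p under 0.05, 48 were higher and 1 was lower, beside 17.7% and 13.7% of all tested genes. On libraries scaled to 19 pan-endothelial markers 51 were called higher, beside 61.3% of all tested genes.

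**Figure D1:**
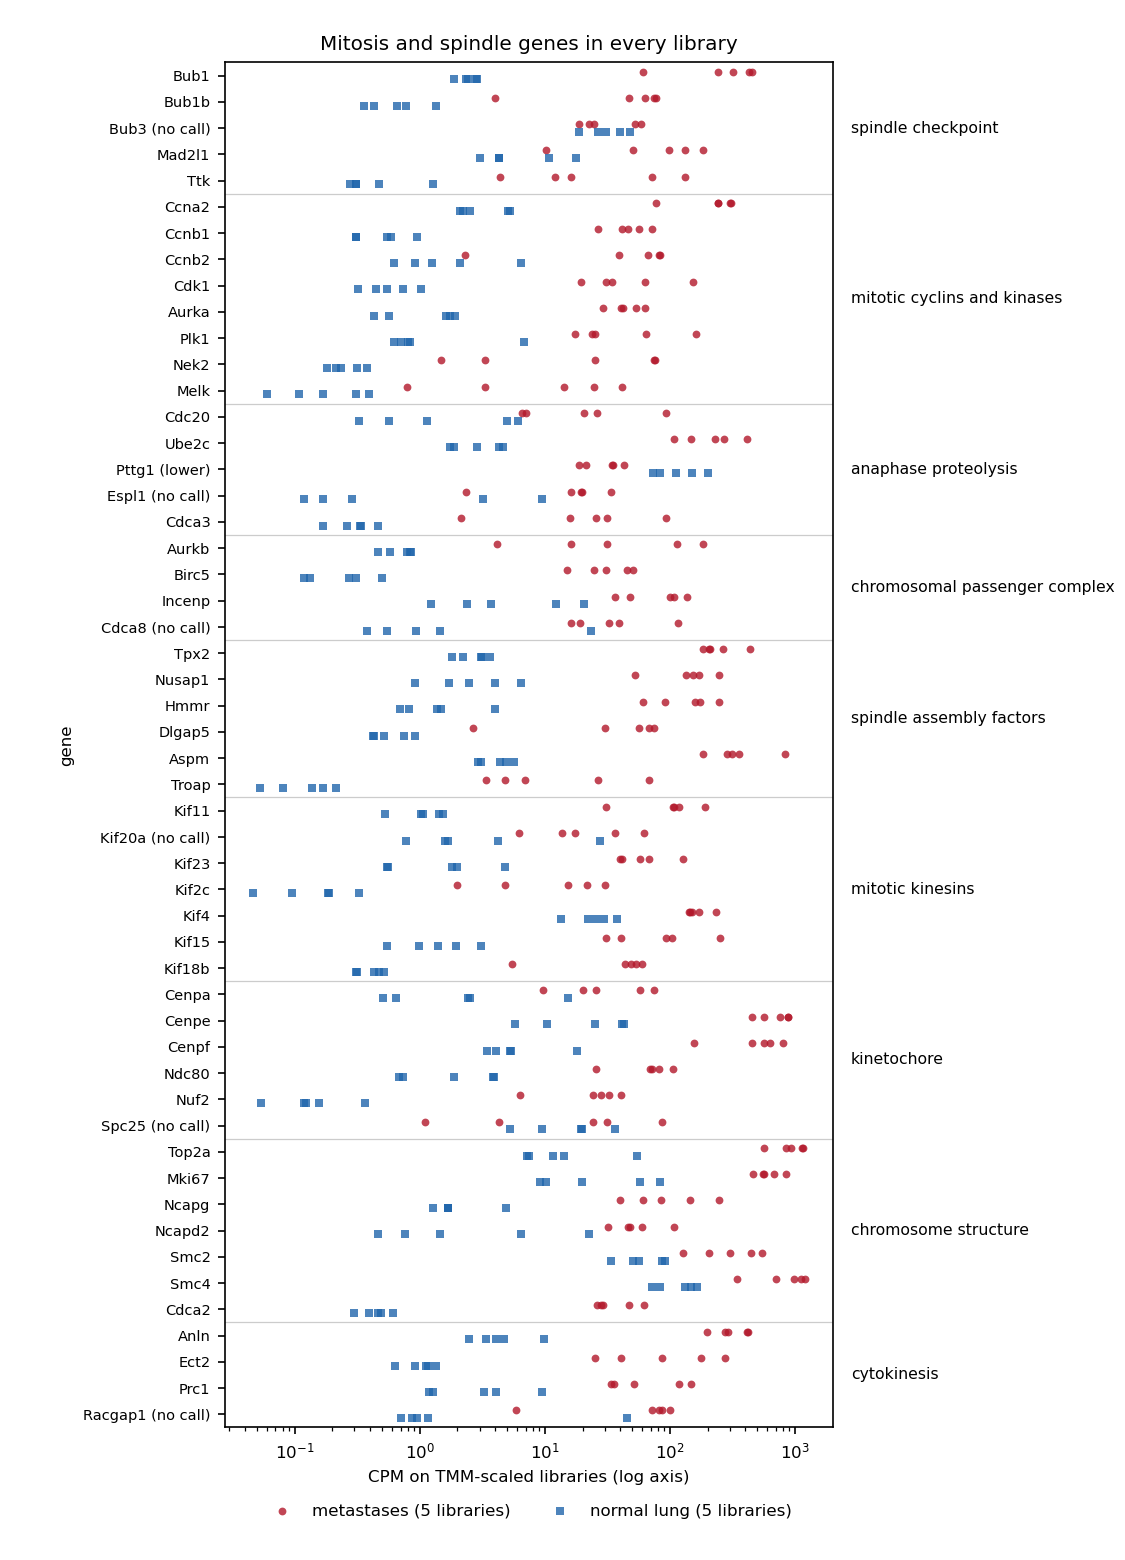
CPM of each of the 52 genes (rows, grouped by role) in each library, on a log axis, with circles for the 5 metastasis libraries and squares for the 5 normal lung libraries. Circles lie right of the squares for 42 genes, Pttg1 is the gene with the squares wholly to the right, and the 6 genes marked no call are Bub3, Espl1, Cdca8, Kif20a, Spc25 and Racgap1.

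Levels per length, from the authors' FPKM table (fragments scaled by transcript length and depth), rank the genes against each other. Ube2c was highest in metastases at 372 ± 229 FPKM, followed by Top2a at 142 ± 54.8, Smc4 at 135 ± 63.7 and Ccna2 at 81.1 ± 31.9 FPKM (SD, n = 5). The lowest were Espl1 at 4.17 ± 2.74 and Melk at 4.66 ± 4.10 FPKM. In normal lung the order was another one, led by Pttg1 at 78.5 ± 25.8, Smc4 at 19.3 ± 7.69 and Bub3 at 19 ± 8.79 FPKM. Ube2c was above Top2a in each of the 5 metastasis libraries and Pttg1 above Smc4 in each of the 5 normal lung libraries, whereas Top2a and Smc4 in metastases, and Smc4 and Bub3 in normal lung, differed by less than their SDs.

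The region around the annotated start of many of these genes shares short sequence elements. The CHR (cell cycle genes homology region) is the element bound by the B-Myb and pocket protein complexes, and CCAAT is the element bound by NF-Y. Promoter windows from RefSeq (GRCm38.p6, 250 bases before to 50 after the annotated start) were matched by symbol for 44 of the 52 genes, which gave 47 windows of 300 bases. No window was used for Ccna2, Aurkb, Incenp, Tpx2, Dlgap5, Kif20a, Smc4 and Cdca2. The letters TTTGAA or TTCGAA, on either strand, stood for the CHR, and CCAAT was searched on either strand. The 6 windows below, picked after the values were known, belong to 5 genes that rose and to Pttg1, which fell. They run 5′ to 3′ on the gene's strand, and capitals mark CHR letters and CCAAT, or their reverse complements.
Top2a, chr11:99024140-99024439, minus strand: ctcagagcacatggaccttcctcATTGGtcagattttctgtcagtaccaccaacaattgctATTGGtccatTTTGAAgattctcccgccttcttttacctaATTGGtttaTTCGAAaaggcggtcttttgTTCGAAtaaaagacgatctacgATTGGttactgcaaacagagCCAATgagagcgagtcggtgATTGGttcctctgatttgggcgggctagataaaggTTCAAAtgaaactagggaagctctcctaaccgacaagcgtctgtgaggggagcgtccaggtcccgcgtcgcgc
Ube2c, chr2:164769679-164769978, plus strand: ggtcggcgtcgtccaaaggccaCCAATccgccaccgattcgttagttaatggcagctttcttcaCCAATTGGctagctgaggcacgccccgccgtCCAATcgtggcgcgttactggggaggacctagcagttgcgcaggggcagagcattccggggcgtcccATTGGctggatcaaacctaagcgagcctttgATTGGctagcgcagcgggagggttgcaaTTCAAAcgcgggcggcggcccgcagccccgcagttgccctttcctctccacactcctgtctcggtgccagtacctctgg
Cdk1, chr10:69352863-69353162, minus strand: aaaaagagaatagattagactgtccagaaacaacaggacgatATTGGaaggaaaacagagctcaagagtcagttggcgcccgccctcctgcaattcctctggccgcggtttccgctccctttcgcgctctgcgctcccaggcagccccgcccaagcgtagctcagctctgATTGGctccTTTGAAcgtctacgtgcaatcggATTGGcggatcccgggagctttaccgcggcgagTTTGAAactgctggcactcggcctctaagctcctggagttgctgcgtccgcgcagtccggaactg
Hmmr, chr11:40733388-40733687, minus strand: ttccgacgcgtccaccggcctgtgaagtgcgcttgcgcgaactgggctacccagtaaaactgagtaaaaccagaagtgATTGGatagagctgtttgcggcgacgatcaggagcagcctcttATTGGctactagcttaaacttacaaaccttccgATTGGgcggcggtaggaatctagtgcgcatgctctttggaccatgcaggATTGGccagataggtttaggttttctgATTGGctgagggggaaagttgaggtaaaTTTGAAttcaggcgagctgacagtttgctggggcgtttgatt
Bub1, chr2:127831810-127832109, minus strand: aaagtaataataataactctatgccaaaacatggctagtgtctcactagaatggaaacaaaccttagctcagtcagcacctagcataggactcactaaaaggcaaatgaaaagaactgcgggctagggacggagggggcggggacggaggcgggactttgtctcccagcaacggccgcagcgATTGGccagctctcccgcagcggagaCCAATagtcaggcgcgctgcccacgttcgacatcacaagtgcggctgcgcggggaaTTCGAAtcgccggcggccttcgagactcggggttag
Pttg1, chr11:43425932-43426231, minus strand: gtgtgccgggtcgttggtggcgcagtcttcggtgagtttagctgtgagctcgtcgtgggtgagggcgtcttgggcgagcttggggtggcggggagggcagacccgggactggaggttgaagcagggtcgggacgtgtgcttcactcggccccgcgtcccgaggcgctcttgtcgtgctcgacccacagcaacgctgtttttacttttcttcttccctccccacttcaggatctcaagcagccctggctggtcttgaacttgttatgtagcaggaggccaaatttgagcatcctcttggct

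In these lines Top2a holds 4 CHR matches and 6 CCAAT matches, Ube2c 1 and 6, Cdk1 2 and 3, Hmmr 1 and 5, and Bub1 1 and 2, while Pttg1 holds none of either. Of the 47 windows, 78.7% held CHR letters, against 19.2% of the 32851 windows of all genes. From 100 bases before to 50 after the start, the shares were 72.3% of the windows of mitosis genes and 8.59% of all windows. CCAAT stood in 78.7% of the windows of mitosis genes and in 37.4% of all windows. Both elements were present in 70.2% of the windows of mitosis genes and in 7.52% of all windows. A CHR near the start with at least 2 CCAAT in the window was found in 44.7% of the windows of mitosis genes and in 1.09% of all windows. CHR letters stood in 29 of the 38 genes with a window that rose and in 5 of 5 that got no call. The 9 that rose and have a window without CHR letters were Birc5, Nuf2, Melk, Nusap1, Mad2l1, Ccnb1, Nek2, Cenpe and Troap. Of these, Birc5, Nuf2, Melk, Nusap1 and Mad2l1 held no CCAAT either, so windows without both elements were not particular to Pttg1. A match describes these letters in this window and is not a measured binding site.

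**Figure D2:**
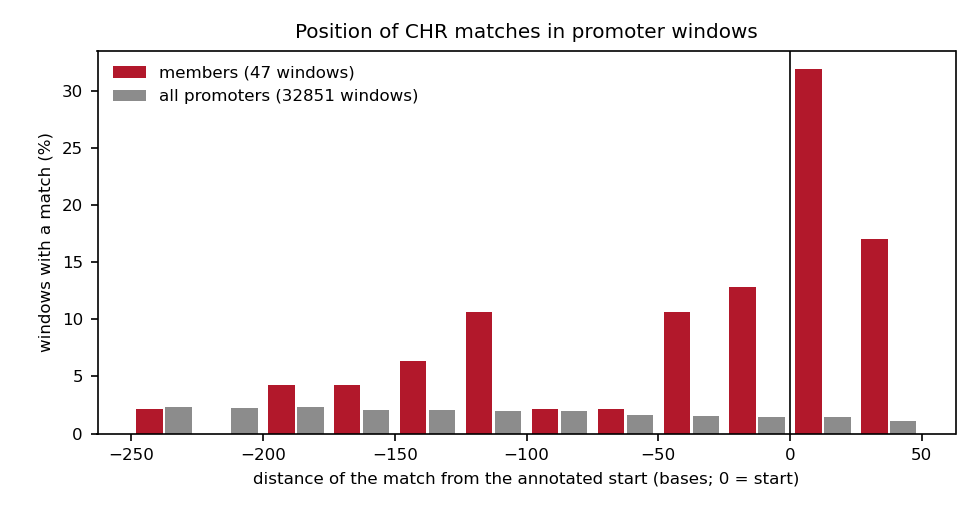
Share of promoter windows (vertical axis, percent) with a CHR match in each bin of 25 bases, by distance from the annotated start (horizontal axis, bases), for the 47 windows of the mitosis and spindle genes and for all 32851 windows. The tallest bin for the mitosis genes is the first after the start, with 31.9% of their windows against 1.43% of all windows.

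Of the 5 spindle checkpoint genes, 4 rose and Bub3 got no call. Mad2l1, the Mad2 protein that captures Cdc20, had 10.3, 50.7, 182, 98.8 and 132 CPM in metastases, against 4.33, 3, 4.33, 17.6 and 10.9 CPM in normal lung. Replicate 1 of the metastases lay within the range of normal lung, so the groups overlapped, and the log2 fold change was 3.56 (SE 0.79, edgeR adjusted p = 0.00228). Ttk, the Mps1 kinase that starts the checkpoint, had 72.1, 16.3, 4.42, 132 and 11.9 CPM in metastases and 0.276, 0.311, 0.306, 0.469 and 1.27 CPM in normal lung. The metastasis libraries ran from replicate 3 to replicate 4 over a wide range without reaching normal lung, with a log2 fold change of 6.49 (SE 1.15, edgeR adjusted p = 0.000307). Bub1, a checkpoint kinase at the centromere, rose by 6.93 (SE 0.61), and Bub1b, the BubR1 part of the inhibitor of the anaphase promoting complex, by 6.23 (SE 1.01) on the log2 scale. Bub3, the WD-repeat protein that brings both kinases to kinetochores and that also acts outside mitosis, had 24.8, 53.0, 18.8, 58.6 and 22.6 CPM in metastases, against 30.7, 26.4, 48.4, 39.9 and 18.6 CPM in normal lung. Its groups overlapped almost wholly, and the log2 fold change was 0.12 (SE 0.68, edgeR adjusted p = 0.931).

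All 8 mitotic cyclins and kinases rose, with log2 fold changes from 4.59 (Ccnb2) to 7.09 (Nek2). Nek2 and Melk passed the filter only through metastases, so a change in them was a condition of being tested. Cdk1, the kinase that drives entry into mitosis (chromosome 10, 69335146 to 69352938), had 63.7, 30.9, 154, 34.7 and 19.6 CPM in metastases, against 0.322, 0.442, 0.541, 1.02 and 0.729 CPM in normal lung. Every metastasis library was above every normal lung library by a wide margin, and the log2 fold change was 6.63 (SE 0.96, edgeR adjusted p = 3.27e-05). Its partner Ccnb1, cyclin B1, had 46.5, 26.5, 56.4, 72.3 and 41.5 CPM in metastases and 0.306, 0.311, 0.588, 0.548 and 0.945 CPM in normal lung, again with no overlap. Ccnb2, cyclin B2, had 2.30, 66.8, 81.3, 83.8 and 39.2 CPM in metastases, against 2.10, 6.43, 0.918, 1.25 and 0.621 CPM in normal lung. Replicate 1 of the metastases was under the normal lung maximum in replicate 2, and this was the one gene of the group whose levels overlapped. Ccnb1 and Ccnb2 have named pseudogenes, so their counts are less certain. Ccna2, cyclin A2, rose by 6.09 (SE 0.61) and Aurka, the Aurora kinase of the spindle poles, by 5.18 (SE 0.93). Plk1, the polo-like kinase, rose by 4.90 (SE 1.03). Nek2, a kinase of centrosome separation, rose by 7.09 (SE 1.27) and the kinase gene Melk by 6.35 (SE 1.41).

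Among the genes of anaphase proteolysis, which open the way for sister chromatids to part, 3 rose, 1 fell and 1 got no call. Ube2c, the ubiquitin-conjugating enzyme of the anaphase promoting complex (chromosome 2, 164769898 to 164778822), had 272, 148, 411, 107 and 228 CPM in metastases, against 1.87, 1.75, 2.87, 4.62 and 4.27 CPM in normal lung. The lowest metastasis library was far above the highest normal lung library, with a log2 fold change of 6.25 (SE 0.61, edgeR adjusted p = 1.45e-07). Pttg1, securin, which holds separase inactive until anaphase (chromosome 11, 43420250 to 43426251), had 34.4, 18.6, 42.6, 21.2 and 35.3 CPM in metastases, against 202, 150.4, 72.8, 112 and 83.6 CPM in normal lung. Every metastasis library was lower than every normal lung library, and the log2 fold change was -2.03 (SE 0.54, edgeR adjusted p = 0.00931). On libraries scaled to the pan-endothelial markers its sign turned, to 0.91 (edgeR adjusted p = 0.287). It also missed the threshold in libraries 1 and 2 alone (-2.71, edgeR adjusted p = 0.0719) and in libraries 3 to 5 alone (-1.45, edgeR adjusted p = 0.144), without metastasis replicates 4 and 5 (-1.99, edgeR adjusted p = 0.0510), and in limma on log2(FPKM + 1) after a filter on low values (-1.10, limma adjusted p = 0.0519). Without that filter limma called it lower.

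Cdc20, the activator of the anaphase promoting complex, had 6.60, 20.6, 93.6, 26.2 and 7.02 CPM in metastases and 4.99, 6.14, 0.565, 1.15 and 0.324 CPM in normal lung. Replicate 3 was by far the highest of the metastases, and replicates 1 and 5 lay just above the highest normal lung value. The log2 fold change was 3.54 (SE 1.12, edgeR adjusted p = 0.0261), and it fell short of the threshold without metastasis replicate 3 (2.51, edgeR adjusted p = 0.142). It also fell short without normal lung replicate 3, 4 or 5 (edgeR adjusted p from 0.0577 to 0.0615). Cdca3, described as a trigger of mitotic entry, rose by 6.75 (SE 1.19). Espl1, separase, the protease that cuts cohesin, had 33.7, 19.5, 2.33, 19.8 and 16.1 CPM in metastases, against 0.168, 9.56, 0.118, 0.287 and 3.19 CPM in normal lung. Normal lung replicates 2 and 5 were above metastasis replicate 3, so the groups overlapped, and the log2 fold change was 2.78 (SE 1.26, edgeR adjusted p = 0.127). Without normal lung replicate 2 it was 4.26 (edgeR adjusted p = 0.0378).

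Of the chromosomal passenger complex, which corrects faulty attachments, the kinase Aurkb, the survivin gene Birc5 and the scaffold Incenp rose. Their log2 fold changes were 6.64 (SE 1.04), 6.97 (SE 1.11) and 3.42 (SE 0.81). Cdca8, borealin, the remaining subunit, had 16.3, 32.3, 116, 19.0 and 39.1 CPM in metastases, against 23.4, 1.45, 0.541, 0.939 and 0.378 CPM in normal lung. Replicate 1 of normal lung alone reached the metastases, and the log2 fold change was 3.06 (SE 1.11, edgeR adjusted p = 0.0532). Without that library it was 5.71 (edgeR adjusted p = 0.00118), and with RLE, upper quartile or total-count scaling of all 10 libraries Cdca8 was called (edgeR adjusted p from 0.0329 to 0.0475). Aurkb had the widest range of the 4 among metastases, from 4.17 CPM in replicate 3 to 185 CPM in replicate 1, against 0.459 to 0.847 CPM in normal lung.

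All 6 spindle assembly factors rose without overlap, and Troap, tastin, rose by 7.36 (SE 1.37, edgeR adjusted p = 0.000498) on the log2 scale, over normal lung levels of at most 0.212 CPM. It passed the filter only through metastases, and without metastasis replicate 1 its log2 fold change was 6.26. Aspm, which organises spindle poles (chromosome 1, 139454772 to 139494091), had 831, 284, 183, 316 and 356 CPM in metastases, against 3.09, 2.89, 5.62, 4.36 and 4.89 CPM in normal lung. Replicate 1 of the metastases stood far above the other 4, and normal lung varied little, with a log2 fold change of 6.56 (SE 0.55, edgeR adjusted p = 1.35e-08). Tpx2, which activates Aurora A and seeds microtubules, had 439.5, 184, 266, 204 and 210.4 CPM in metastases and 2.21, 1.79, 3.65, 3.08 and 3.13 CPM in normal lung. Its spread was narrow in both groups, and the log2 fold change was 6.56 (SE 0.56, edgeR adjusted p = 1.45e-08). Nusap1, a microtubule bundler, rose by 5.61 (SE 0.71). Hmmr, a hyaluronan receptor that also acts in the spindle, rose by 6.45 (SE 0.75), and Dlgap5, which stabilises kinetochore fibres, by 6.26 (SE 1.05).

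Of the 7 mitotic kinesins 6 rose without overlap. Kif11, the Eg5 motor that pushes spindle poles apart (chromosome 19, 37376403 to 37421859), had 192, 107, 31.1, 108 and 118 CPM in metastases, against 1.03, 0.526, 1.06, 1.43 and 1.54 CPM in normal lung. Replicate 3 was the lowest metastasis library and still far above normal lung, with a log2 fold change of 6.64 (SE 0.77, edgeR adjusted p = 1.69e-06). Kif4, a motor of chromosome arms and the midzone, had 149, 235, 141, 172 and 144 CPM in metastases and 22.1, 25.7, 38.1, 29.9 and 13.4 CPM in normal lung. It had the smallest log2 fold change among the kinesins that rose, 2.70 (SE 0.50, edgeR adjusted p = 0.000509), and per length the highest normal lung level of the 7 kinesins, 5.23 ± 1.66 FPKM. Kif4 overlaps Pdzd11 on the opposite strand and has a named pseudogene. Kif15, a helper of Eg5, rose by 6.03 (SE 0.84) and Kif23, a centralspindlin motor, by 5.12 (SE 0.89). The microtubule depolymerases Kif2c and Kif18b rose by 6.46 (SE 1.40) and 6.69 (SE 1.04). Kif20a, a midzone motor, had 6.16, 36.1, 13.8, 17.5 and 61.8 CPM in metastases, against 4.23, 1.59, 0.776, 27.4 and 1.67 CPM in normal lung. Normal lung replicate 4 lay among the metastases, and the log2 fold change was 1.93 (SE 1.06, edgeR adjusted p = 0.220). Without that library it was 3.67 (edgeR adjusted p = 0.0285). Limma on the FPKM table called it higher in all 3 fits (2.40 to 3.26, limma adjusted p from 0.0198 to 0.0424), as did edgeR on pan-endothelial scaling (5.00, edgeR adjusted p = 0.00116).

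Of the 6 kinetochore genes 5 rose. Cenpe, the kinetochore motor that moves chromosomes to the equator (chromosome 3, 135212537 to 135273611), had 883, 458, 565, 882 and 755 CPM in metastases, against 42.9, 5.81, 25.1, 41.7 and 10.5 CPM in normal lung. The metastases lay within a narrow range and the normal lung libraries within a wider one, with a log2 fold change of 4.81 (SE 0.54, edgeR adjusted p = 1.01e-06). Cenpf, a large protein of the outer kinetochore, rose by 6.17 (SE 0.61). Of the Ndc80 complex, which grips microtubule ends, Ndc80 rose by 5.01 (SE 0.85) and Nuf2 by 7.33 (SE 1.22). Spc25, of the same complex, had 4.26, 24.3, 1.09, 86.6 and 31.3 CPM in metastases, against 5.22, 19.9, 9.48, 36.6 and 19.4 CPM in normal lung. Its groups overlapped, metastasis replicates 1 and 3 were the lowest of all 10 libraries, and the log2 fold change was 0.70 (SE 0.95, edgeR adjusted p = 0.666). Whether the subunits differed from each other was not tested. Cenpa, the histone H3 variant of the centromere, had 20.3, 75.1, 9.68, 58.1 and 25.8 CPM in metastases and 0.505, 2.43, 15.2, 2.50 and 0.648 CPM in normal lung. Normal lung replicate 3 overlapped the metastases, and the log2 fold change was 3.15 (SE 1.04, edgeR adjusted p = 0.0335). The Cenpa call was lost on leaving out any of 6 libraries, metastasis replicates 2 and 4 and normal lung replicates 1, 2, 4 and 5 (edgeR adjusted p from 0.0714 to 0.0886), with log2 fold changes of 2.73 to 2.97.

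All 7 genes of chromosome structure rose without overlap, with the smallest changes in Smc2 and Smc4. Top2a, the topoisomerase that untangles sister chromatids (chromosome 11, 98992943 to 99024189), had 1159.5, 569, 1132, 934 and 849 CPM in metastases, against 7.44, 7.18, 11.7, 54.5 and 14.2 CPM in normal lung. Normal lung replicate 4 was the highest of its group and still far under the metastases, with a log2 fold change of 5.61 (SE 0.58, edgeR adjusted p = 3.02e-07). Mki67, the Ki-67 coat of mitotic chromosomes, had 676, 556, 463, 842 and 571 CPM in metastases and 9.09, 10.3, 83.2, 58.0 and 20.0 CPM in normal lung. Replicates 3 and 4 were the highest of normal lung, and the log2 fold change was 4.11 (SE 0.57, edgeR adjusted p = 1.84e-05). Smc4, the condensin ATPase (chromosome 3, 69004738 to 69034623), had 701, 347, 1202, 993 and 1126 CPM in metastases, against 132, 71.8, 84.0, 149 and 166 CPM in normal lung. Its groups stayed apart with a log2 fold change of 2.86 (SE 0.41, edgeR adjusted p = 3.19e-05), and Smc2, its partner, rose by 2.34 (SE 0.47). The condensin I subunits Ncapg and Ncapd2 rose by 5.69 (SE 0.77) and 3.21 (SE 0.97), and Cdca2, which brings phosphatase PP1 to chromatin, by 6.42 (SE 1.00). Of these 7 genes only Smc2 missed the threshold in libraries 1 and 2 alone (1.49, edgeR adjusted p = 0.319).

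Of the 4 cytokinesis genes 3 rose. Anln, anillin of the contractile ring (chromosome 9, 22332012 to 22389188), had 414, 293, 197, 421 and 276 CPM in metastases, against 2.46, 9.80, 4.07, 4.67 and 3.38 CPM in normal lung. The groups were far apart, with a log2 fold change of 6.03 (SE 0.55, edgeR adjusted p = 5.32e-08). Ect2, the exchange factor that activates RhoA at the furrow, rose by 6.87 (SE 0.83), and Prc1, which bundles midzone microtubules, by 4.33 (SE 0.84). Racgap1, the centralspindlin partner of Kif23, had 85.9, 72.3, 5.86, 100 and 81.9 CPM in metastases, against 45.5, 0.956, 1.15, 0.861 and 0.702 CPM in normal lung. Normal lung replicate 1 stood far above the other 4 of its group, metastasis replicate 3 far under the other 4 of its own, and the log2 fold change was 2.81 (SE 1.09, edgeR adjusted p = 0.0711). Without normal lung replicate 1 it was 6.20 (edgeR adjusted p = 0.000215).

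The level in normal lung was near the floor of the measurement for many of these genes. In no library was any gene with over 20000 counts in the other 9 libraries at 0, and the lowest such gene had 0.144 to 0.238% of those other counts. The first percentile of these shares was 0.230 to 0.934%. Some of the 52 genes, such as Bub1, Tpx2 and Aspm, were themselves among the genes over which these shares were taken. The floor was therefore not measured apart from the genes set against it. Of the 52 mitosis genes, 25 had under 1% of the summed metastasis counts in each of the 5 normal lung libraries, with medians of 0.265 to 0.347% per library. Among the 6997 genes with at least as many metastasis counts as the lowest of the 52, 276 genes or 3.94% did so. The 25 genes include Bub1, Cdk1, Ccna2, Ube2c, Tpx2, Aspm, Kif11, Cenpf and Ect2. How much of these normal lung counts belongs to the normal lung cells was not tested, and the fold changes of these 25 genes depend on those counts.

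Other members kept counts in normal lung far above that floor. Pttg1 and Bub3 exceeded 10% of the summed metastasis counts in 5 and 4 normal lung libraries. In a single normal lung library, 10% was passed by Racgap1, Cdca8 and Smc2 (replicate 1), Espl1, Incenp and Cdc20 (replicate 2) and Kif20a (replicate 4). These shares are of counts not scaled for depth. By CPM, Smc2 was higher in replicate 4 (91.3) than in replicate 1 (86.8). Spc25 passed 10% in replicates 2, 4 and 5. When the first-percentile share of the other libraries' counts was subtracted from each library, a choice made after seeing the data, 17 to 22 of the 52 genes went to 0 per normal lung library. Of the summed normal lung counts of these genes, 79.9 to 89.7% remained. The share subtracted was taken over well-counted genes that include some of the 52. After that subtraction 41 of 52 were called higher and Pttg1 lower, against 6.85% of all tested genes called higher. Cdc20, Incenp, Cenpa and Ncapd2 lost their call, although their log2 fold changes after it, 3.62, 3.50, 3.31 and 3.29, were no smaller than the 3.54, 3.42, 3.15 and 3.21 before it.

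**Figure D3:**
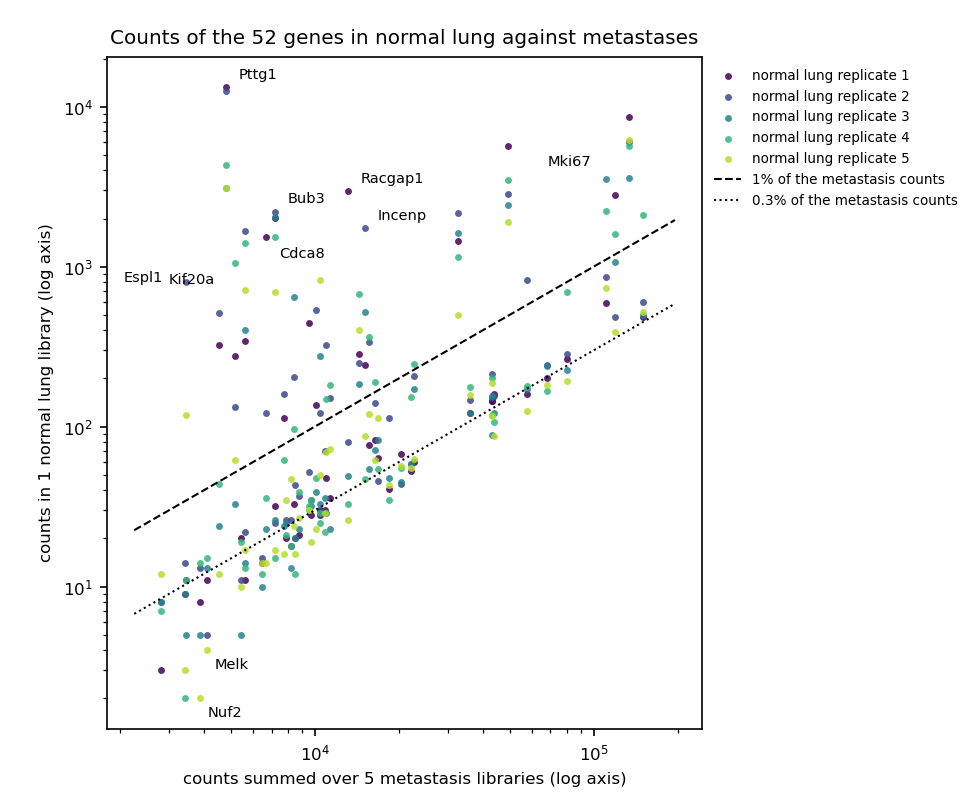
Counts of each of the 52 genes in 1 normal lung library (vertical axis, log) against its counts summed over the 5 metastasis libraries (horizontal axis, log), coloured by normal lung replicate, with lines at 1% and 0.3% of the metastasis counts. Many genes lie around the 0.3% line and under the 1% line in all normal lung libraries. Pttg1, Bub3 and single-library points of Racgap1, Cdca8, Incenp, Espl1 and Kif20a lie far above the 1% line.

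The metastasis libraries differed from each other gene by gene. The summed level ranged from 5454 CPM in replicate 2 to 9787 CPM in replicate 1, while single genes such as Melk ranged from 0.794 to 41.7 CPM. Replicate 3 held the highest value of 15 of the 52 genes and the lowest value of 19. In that library 11 genes had under 2% of the counts of the other 4 metastasis libraries, namely Bub1b, Ttk, Nek2, Melk, Espl1, Cdca3, Aurkb, Dlgap5, Kif18b, Spc25 and Racgap1. In replicate 1 it was Ccnb2 and Nek2, and in replicates 2, 4 and 5 none. Of the 6997 genes compared, 16% were under 2% in replicate 3, 9.13% in replicate 1 and 1.33 to 4.46% in the other 3 libraries. Replicate 3 had 24733797 counts in genes, the second lowest total of the 5.

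**Figure D4:**
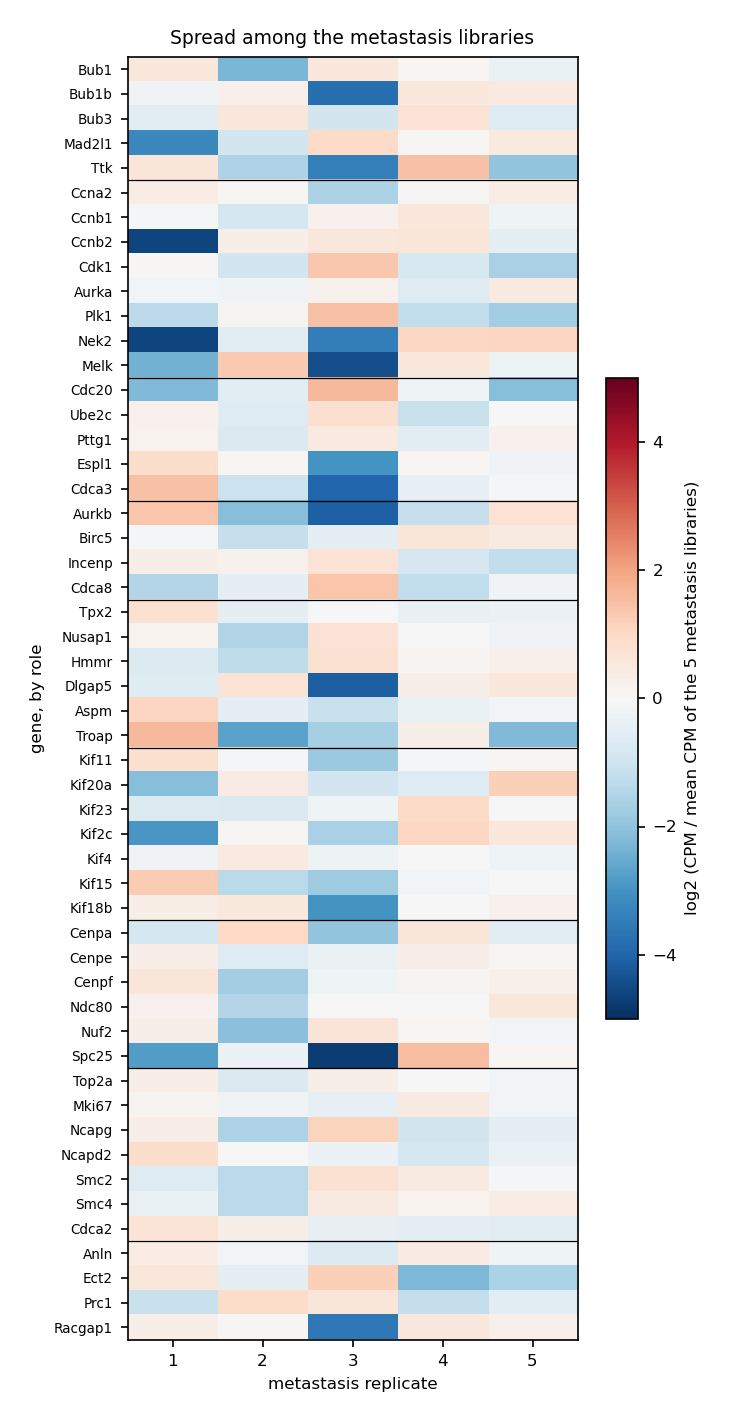
Each row is one of the 52 genes by role and each column one of the 5 metastasis libraries, with colour showing log2 of the CPM over the mean of the 5 libraries. Dark blue cells, genes nearly missing from one library, stand mostly in replicate 3 (Bub1b, Ttk, Nek2, Melk, Cdca3, Aurkb, Dlgap5, Spc25, Racgap1) and in replicate 1 (Ccnb2, Nek2).

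The count and FPKM tables differed for single points in normal lung. Plk1 in normal lung replicate 1 was 6.80 CPM, the highest of its group, but 0.647 FPKM, within the 0.486 to 0.954 FPKM of the other 4 libraries. Ncapg in normal lung replicate 4 was the highest of its group at 4.93 CPM but the lowest at 0.203 FPKM. Cdc20 in normal lung replicate 1 was 4.99 CPM, but its 0.291 FPKM was the lowest of its group. Espl1 in normal lung replicate 2 was the highest at 9.56 CPM, but its 0.705 FPKM was under the 0.831 FPKM of replicate 5. In all, 14 of the 52 genes have exons that overlap another gene in GENCODE M21, 12 of them on the opposite strand. Pairs include Plk1 and Gm44985, Cdc20 and Elovl1, Ube2c and Tnnc2, Ccna2 and Exosc9, Nusap1 and Oip5, and Prc1 and Rccd1. Whether the counting used strand is not given in the sources used here. Without strand, reads of such partners cannot be told apart.

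The columns of the FPKM table list libraries 1 and 2 apart from libraries 3 to 5, and the labels name no batch. In libraries 3 to 5 alone 45 of the 52 genes were higher, against 9.29% of tested genes. In libraries 1 and 2 alone 30 were higher, against 3.87% of tested genes. Relative to all 10 libraries, Cdca8 (log2 fold change 6.52, edgeR adjusted p = 0.00326) and Racgap1 (6.09, edgeR adjusted p = 0.00585) gained a call in libraries 3 to 5. Cenpa (2.33, edgeR adjusted p = 0.24) and Ncapd2 (2.07, edgeR adjusted p = 0.231) lost theirs there, as did Pttg1. The summed level was above normal lung in every metastasis library of both sets. Leaving out a single library moved the fold by over 1.5 times for 18 of the 46 called genes, and no log2 fold change of a gene that rose fell under 2.05. Among metastasis libraries, leaving out replicate 1 gave 5.86 for Aurkb, 5.88 for Cdca3, 5.37 for Kif15 and 6.26 for Troap. Leaving out replicate 2 gave 5.68 for Melk, replicate 3 gave 2.51 for Cdc20, 5.90 for Cdk1 and 4.07 for Plk1, and replicate 4 gave 5.62 for Ttk. Among normal lung libraries, leaving out replicate 1 gave 6.27 for Plk1, replicate 2 gave 5.45 for Ccnb2 and 4.11 for Incenp, and replicate 3 gave 4.60 for Cenpa. Leaving out normal lung replicate 4 gave 6.82 for Cenpf, 7.04 for Hmmr, 5.74 for Kif23, 4.95 for Prc1 and 6.49 for Top2a, and replicate 5 gave 4.64 for Ncapd2 and 7.08 for Ttk. Of these genes Cdc20 alone lost its call by such a move, without metastasis replicate 3.

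Other genes of the mitotic machinery, 140 chosen by role and none of them among the 52, were examined in the same fit. Of the 127 that were tested, 45 rose (35.4%) and 4 fell (3.15%), beside the background of 12.0% and 8.22%. Their median log2 fold change was 1.44. Of the 45 that rose, 18 passed the filter on low counts through their metastasis libraries, as their normal lung libraries alone did not reach it, so a change in these was a condition of being tested. In libraries 1 and 2 alone 16 were called higher, and 25 were after the first-percentile subtraction, beside 3.87% and 6.85% of all tested genes. By group, 8 of 12 mitotic entry regulators rose, 6 of 10 cytokinesis genes, 12 of 27 kinetochore and checkpoint genes, 3 of 6 kinesins, 2 of 4 condensin subunits, 7 of 25 spindle and centrosome genes, 3 of 13 cohesin genes, 3 of 13 transcription regulators and 1 of 17 genes of the anaphase promoting complex and its cofactors. That gene was Cdc27, a subunit, with 392, 252, 727, 486 and 432 CPM in metastases, against 78.8, 143, 227, 196 and 315 CPM in normal lung. The groups overlapped and the log2 fold change was 1.25 (SE 0.41, edgeR adjusted p = 0.0334). That call was lost on leaving out any of 7 libraries, metastasis replicates 3, 4 and 5 and normal lung replicates 1 to 4 (0.99 to 1.29, edgeR adjusted p from 0.0579 to 0.0984).

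Foxm1, the transcription factor of G2 and M phase genes, had 253, 123, 92.8, 149.7 and 84.4 CPM in metastases, against 2.07, 6.25, 2.17, 2.03 and 1.32 CPM in normal lung. The groups did not overlap, with a log2 fold change of 5.66 (SE 0.70, edgeR adjusted p = 4.16e-06). Mybl2, B-Myb, rose by 5.50 (SE 1.34), but metastasis replicate 3 with 0.496 CPM lay under normal lung replicate 4 with 1.23 CPM. Mybl2 was not called in libraries 1 and 2 alone (7.44, edgeR adjusted p = 0.0875) or in libraries 3 to 5 alone (4.95, edgeR adjusted p = 0.0540). Nor was it called without metastasis replicates 4 and 5 (4.78, edgeR adjusted p = 0.0510) or after the first-percentile subtraction (6.43, edgeR adjusted p = 0.0665). Rb1, the retinoblastoma protein, had 199.9, 129, 70.1, 64.0 and 20.1 CPM in metastases and 274, 302, 337, 424 and 525 CPM in normal lung. Every metastasis library was lower than every normal lung library, with a log2 fold change of -1.95 (SE 0.49, edgeR adjusted p = 0.00578). In libraries 1 and 2 alone Rb1 was not called (-0.79, edgeR adjusted p = 0.560). Rbl2, the p130 pocket protein, fell by 1.63 (SE 0.51), and was not called without normal lung replicate 4 (-1.50, edgeR adjusted p = 0.0675). It also missed the threshold with total-count scaling (-1.30, edgeR adjusted p = 0.0799) and in libraries 1 and 2 alone (-1.59, edgeR adjusted p = 0.333). Without metastasis replicates 4 and 5 it was -1.80 (edgeR adjusted p = 0.0609). On libraries scaled to the pan-endothelial markers the signs of Rb1 and Rbl2 turned, to 0.32 and 1.29, and neither was called.

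Further genes that rose, with log2 fold changes, were cyclin F (Ccnf, 6.78) and the Cdk1 phosphatase Cdc25c (5.24). In the cohesin group they were sororin (Cdca5, 6.76) and the acetyltransferase Esco2 (5.65). Ncaph of condensin I (3.21) and Ncapg2 of condensin II (2.56) rose, though Ncapg2 was not called on leaving out any of 7 libraries, metastasis replicates 2, 3 and 5 and normal lung replicates 1, 2, 4 and 5 (2.24 to 2.69, edgeR adjusted p from 0.0641 to 0.109). The kinesins Kif14 (6.12) and Kif20b (3.97) rose. The centriole factor Stil (6.06), the microtubule protein Ckap2 (4.07), Shcbp1 (6.97) and Depdc1a (6.62) rose as well. Normal lung alone did not reach the filter for Ccnf, Cdc25c, Cdca5, Esco2, Shcbp1, Depdc1a or Mybl2, nor for Cenpw of the kinetochore (7.67), so these fold changes stand over normal lung levels of at most 1.685 CPM. Also at the kinetochore Kntc1 (7.06) rose, whereas Zw10, which forms a complex with the Kntc1 product, fell by 3.91 (SE 1.21). Zw10 had 0.406, 0.490, 0.0992, 1.92 and 2.33 CPM in metastases, against 8.94, 15.8, 21.6, 24.4 and 8.48 CPM in normal lung, with no overlap. Without normal lung replicate 4 the Zw10 call was lost (-3.74, edgeR adjusted p = 0.0534), as it was in libraries 1 and 2 alone (-4.77, edgeR adjusted p = 0.271), in libraries 3 to 5 alone (-3.65, edgeR adjusted p = 0.0979) and after the first-percentile subtraction (-4.45, edgeR adjusted p = 0.153). Haus5, of the augmin complex, fell by 3.65 (SE 1.03), and its normal lung mean rests largely on replicate 2 with 259 CPM, against 4.635 to 16.95 CPM in the other 4 libraries. Without that library the change in Haus5 was -1.27 (edgeR adjusted p = 0.484), and limma on the FPKM table did not call it (limma adjusted p from 0.0857 to 0.158). On pan-endothelial scaling Zw10 was -0.61 and Haus5 -0.70, and neither was called.

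Markers of endothelial cells and of some other cell types also differed between the groups. Beside the calls in this paragraph and the next, 12.0% of all tested genes were called higher and 8.22% lower. The sum of 19 pan-endothelial markers was 7217, 4579, 4514.5, 1673 and 1096 CPM in metastases, against 25616, 16957, 14054, 13891 and 13032.5 CPM in normal lung, and 16 of the 19 fell and none rose. In the same order, the sums of the mitosis genes in metastases were 9787, 5454, 8706, 8736 and 8148 CPM. Pecam1, which encodes CD31, averaged 644 ± 508 CPM in metastases and 2415 ± 864 CPM in normal lung (SD, n = 5 each), a log2 fold change of -1.91 (SE 0.47, edgeR adjusted p = 0.00549). Ptprc, which encodes CD45, averaged 121 ± 25.6 CPM in metastases and 17.8 ± 7.31 CPM in normal lung, a log2 fold change of 2.77 (SE 0.57, edgeR adjusted p = 0.00120). Neither gene was at 0 in any library.

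Macrophage and monocyte markers summed to 1072.5 to 2119 CPM in metastases and 71.8 to 238 CPM in normal lung, and 7 of 10 tested rose. Fibroblast markers summed to 402 to 965 CPM in metastases and 7.16 to 62.9 CPM in normal lung, with 6 of 8 tested higher and Tcf21 at 0 in every library. Platelet markers summed to 731 to 12801 CPM in metastases and 192 to 1006 CPM in normal lung, with 3 of 6 higher. Neutrophil markers summed to 18.2 to 79.0 CPM in metastases and 0.0717 to 2.22 CPM in normal lung, with 2 of 2 tested higher. Those 2, S100a8 and Csf3r, were tested only through their metastasis libraries, as were the macrophage markers Cd14 and C1qb and the epithelial marker Krt8. Normal lung alone did not reach the filter on low counts for these genes, so a change in them was a condition of being tested. Epithelial markers summed to 23.6 to 171 CPM in metastases and 10.8 to 755 CPM in normal lung, where Krt8 rose by 6.47 (SE 1.20), Scgb1a1 fell by 5.74 (SE 1.21), the other 3 tested got no call and Krt5 was at 0. Scgb1a1, with 752 and 558 CPM, made up most of the epithelial sum in normal lung replicates 3 and 5. Lymphocyte markers summed to 0.794 to 34.6 CPM in metastases and 0.282 to 12.2 CPM in normal lung, with 0 of 2 tested called. Pericyte and smooth muscle markers summed to 4.42 to 81.0 CPM in metastases and 11.7 to 59.0 CPM in normal lung, with 1 of 4 tested lower. No erythroid marker was tested, and their sums were at most 5.37 CPM in metastases and 8.62 CPM in normal lung. The part of these cells, or of tumour cells, in the mitotic RNA was not tested.

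**Figure D5:**
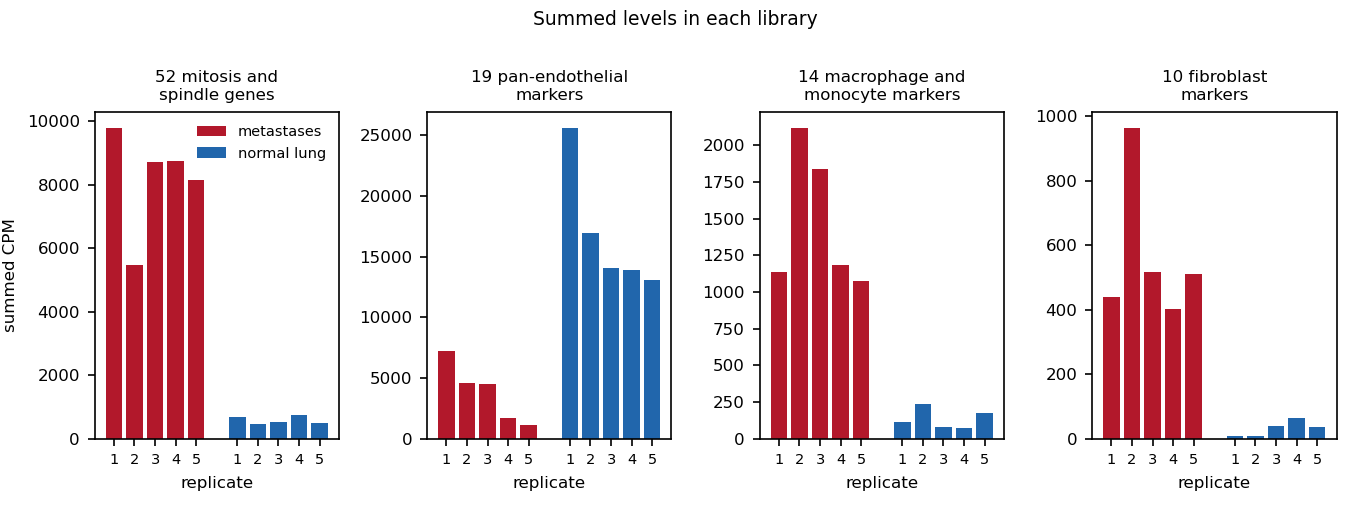
Summed CPM (vertical axes, from 0) of the 52 mitosis and spindle genes, 19 pan-endothelial markers, 14 macrophage and monocyte markers and 10 fibroblast markers in each library, with the 5 metastasis libraries left of the 5 normal lung libraries. Mitosis genes, macrophage markers and fibroblast markers are higher in all 5 metastasis libraries and pan-endothelial markers are lower.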

How the data were processed

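Total RNA of 10 sorted libraries was sequenced as paired 100 bp reads. Per the submitters' processing notes the builds were mm10 and GRCm38, and the tools were HTSeq 0.6.1, TopHat2 2.0.13, DESeq2 1.6.3 and Cufflinks 2.2.1. Which annotation was used, and whether strand was, is not given in the sources used here. The deposited values are raw counts per gene and, in a table by the authors, FPKM for 24460 genes. HTSeq summary categories were left out, and reads outside genes made up 55.4 to 73.7% of the records per library.

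Counts were compared with edgeR 4.0.16 in R 4.3.3 (filterByExpr defaults, TMM, quasi-likelihood F test with robust dispersions, two-sided, no covariate), metastases minus normal lung, with Benjamini-Hochberg adjustment over 11823 genes. SE was approximated by dividing the size of a log2 fold change by the root of its F statistic. Alternatives used DESeq2 1.42.0, limma 3.58.1 on log2(FPKM + 1) and log2(FPKM + 0.1), other scalings and filters, sets of libraries and each library left out. The code was checked on simulated data. Positions and overlaps are from GENCODE M21 (GRCm38) and promoters from RefSeq (GRCm38.p6). Figures used Python 3.11.15 and matplotlib 3.10.9.

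The 52 genes, the other gene lists and the alternatives were chosen with earlier results of these data known. All 52 are named, with the 2 largest called changes each way in each further mitotic list, Pecam1 and Ptprc. Samples, grouped by the labels' titles, share replicate numbers between groups. Deviations of same-numbered libraries correlated by 0.00 to 0.14, so the numbers were not taken as pairs. Pairwise correlations of libraries were 0.655 to 0.814 within metastases and 0.755 to 0.819 within normal lung.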

Additional observations from a re-analysis of the deposited data

Results flagged for a closer look

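In 16 of the 104 groups of 5 values examined (52 genes in each of 2 groups), the highest or lowest library stood apart from the other 4, by the size of its gap to the nearest of them. Chance flags about 1 in 20 groups of normally distributed values, and how often it would flag CPM values was not measured. Of the 16 points, 4 were in metastases and 12 in normal lung, and 15 were the highest value of their group.

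In metastases, replicate 3 was low for Ccna2 with 78.2 CPM, where the nearest library had 241 CPM. The same library was high for Cdc20 with 93.6 CPM and for Cdca8 with 116 CPM. Replicate 1 was high for Aspm with 831 CPM, where the nearest library had 356 CPM.

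In normal lung, replicate 4 was high for 5 genes, with 27.4 CPM for Kif20a, 18.2 CPM for Cenpf, 54.5 CPM for Top2a, 4.93 CPM for Ncapg and 4.02 CPM for Hmmr. Replicate 1 was high for Racgap1 with 45.5 CPM, for Cdca8 with 23.4 CPM and for Plk1 with 6.80 CPM. Replicate 5 was high for Ncapd2 with 22.4 CPM and for Ttk with 1.27 CPM. Replicate 2 was high for Ccnb2 with 6.43 CPM and replicate 3 for Cenpa with 15.2 CPM.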

How the results depend on the processing

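The count of 45 genes higher stayed within 41 to 51 under all alternatives run except libraries 1 and 2 alone, with 30. Over all tested genes, higher calls numbered 785 to 7248 in those alternatives and 487 in libraries 1 and 2 alone. Leaving out each library gave 43 to 46 higher and 1 lower. In those fits 1302 to 1440 of all tested genes were called higher and 792 to 1114 lower, with 12116 to 12353 genes tested. With a replicate block edgeR called 48 higher and 1 lower, beside 1435 and 1180 of all 11823 tested genes. With DESeq2, which added Espl1, Cdca8 and Racgap1, the counts were 48 and 1. DESeq2 called 2380 of 12971 genes higher and 1661 lower, against 1420 and 972 of 11823 in the main fit. The lower count was 0 with limma on log2(FPKM + 1) and on log2(FPKM + 0.1), in each set of libraries (1 and 2, or 3 to 5) alone, without metastases 4 and 5, and on pan-endothelial scaling. Over all tested genes, lower calls in these settings numbered from 18 on pan-endothelial scaling to 1259 with limma on log2(FPKM + 0.1). Of the other mitotic genes, 45 rose and 4 fell, and leaving out each library gave 41 to 49 and 2 to 5. Their higher count was 16 in libraries 1 and 2 alone, 111 on pan-endothelial scaling and 25 after the first-percentile subtraction. Of all tested genes, 3.87%, 61.3% and 6.85% were called higher in these settings. Their lower count was 1 at a threshold of 0.01 and in libraries 1 and 2 alone, 2 in the set of libraries 3 to 5, without metastases 4 and 5, without normal lung replicate 4 and after the first-percentile subtraction, and 0 on pan-endothelial scaling. With the replicate block they numbered 46 and 5. The log2 ratio of summed levels, 3.82, was 6.69 on pan-endothelial scaling and 3.47 from FPKM. Scaling to the pan-endothelial markers moved the median log2 fold change of all genes to 2.86 and made 99.8% of calls higher, against 59.4%, and library totals moved the median to 0.32. On pan-endothelial scaling signs turned for Pttg1 (0.91), Rbl2 (1.29), Rb1 (0.32) and Pecam1 (0.44). On the same scaling Bub3 (3) and Spc25 (3.94) were called higher (edgeR adjusted p = 0.00453 and 0.00418). Bub3 turned to -0.11 in libraries 3 to 5 alone and -0.07 without metastases 4 and 5, and ranged from -0.15 to 0.26 on leaving out each library. Spc25 was -0.10 with the replicate block and -0.93 without metastases 4 and 5, and ranged from -0.28 to 1.09. The cause was not tested. Own-number libraries were the best match for 2 of 5 replicates. The pan-endothelial scaling and the sets of libraries follow from earlier results, and both subtractions were chosen after seeing the data. For 25 genes the normal lung counts were 0.0517 to 0.87% of the metastasis counts, with medians of 0.265 to 0.347% per library. The fold changes of these genes depend on those counts.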
